A study of Mus musculus with 5 samples.

Results

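Cxcl12 and its receptors were examined in single mouse embryos at E6.75, after deletion of Oct4 (gene symbol Pou5f1) in the epiblast. The group comprised 7 genes of the 49671 in the count table, taken by gene name: the chemokines Cxcl12 and Cxcl14, the Cxcl12 receptors Cxcr4 and Ackr3, the apelin receptor Aplnr and its peptide ligands Apln and Apela. These genes were chosen from their measured levels in the same SO− against SO+ comparison, in which the ligand Cxcl12 was low and its receptors were not, so their differences between genotypes are given as descriptions without a test. Of the 7 genes, 6 passed the filter on low counts that kept 12067 genes in all, and Cxcl14 did not.

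RNA was sequenced from 2 SO+ embryos, labelled Sox2Cre-/-; Oct4 fl/+ (WT), and 3 SO− embryos, labelled Sox2Cre+/-; Oct4 fl/-. All were of mixed strain background, and each library was made from 1 embryo that kept its epiblast and visceral endoderm (VE) while the extra-embryonic ectoderm was cut away for genotyping. SO+ embryos carried 1 floxed Oct4 allele and no Cre. SO− embryos combined a floxed and a deleted allele with a Cre under the Sox2 promoter, which recombines mainly in the epiblast, so that the VE was not the target of the deletion and loss of Oct4 at this stage may have been incomplete. Litters were not given, so it is not known whether the embryos are independent. The p-values below weigh the genotype difference against the spread between these embryos.

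Library totals differed with genotype. The SO+ totals were 27538119 and 27047148 counts, and the SO− totals ranged from 1117566 in SO− 2 to 4191498 in SO− 3. Levels are given as CPM (counts scaled to 1000000 per library) on library sizes scaled by the trimmed mean of M values (TMM), or as FPKM, which also divides by exon length in units of 1000 bases, where genes are compared with each other. The targeted gene followed the labels: Pou5f1 stood at 916 and 435 CPM in SO+ and at 27.9, 12.4 and 44.0 CPM in SO−, where 1.84% to 6.51% of the SO+ mean was left. All SO+ libraries shared one sequencing index and all SO− libraries another, so index, depth and genotype cannot be told apart.

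Cxcl12 is a secreted chemokine that guides migrating cells, among them primordial germ cells and blood progenitors. Cxcr4 transmits its signal through inhibitory G proteins, whereas the atypical receptor Ackr3 binds and clears the ligand and works through arrestins rather than G proteins. Aplnr is also coupled to inhibitory G proteins, and with its ligands Apln and Apela it acts in the movement of mesendoderm and in early heart and vessel formation. In the gastrulating mouse embryo Cxcr4 and Aplnr are known as genes of nascent mesoderm or definitive endoderm.

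RefSeq held a promoter entry in build GRCm38.p6 for 6 of the 7 genes, all but Aplnr. The 250 bases before the start of transcription are shown 5′ to 3′ for the ligand and its receptors, the genes between which the levels diverged, and for Apela, the 1 gene with a match to the shortened octamer. Capitals mark every match on either strand to 4 short motifs. The first is ATGCAAAT, the octamer read by POU factors such as Oct4. The second is its first 7 letters, ATGCAAA, so that a match to the whole octamer would also count here. The others are TATAAA, which positions the start of transcription, and the GC box, CCGCCC.
Cxcl12 (chr6:117168285-117168534, plus strand): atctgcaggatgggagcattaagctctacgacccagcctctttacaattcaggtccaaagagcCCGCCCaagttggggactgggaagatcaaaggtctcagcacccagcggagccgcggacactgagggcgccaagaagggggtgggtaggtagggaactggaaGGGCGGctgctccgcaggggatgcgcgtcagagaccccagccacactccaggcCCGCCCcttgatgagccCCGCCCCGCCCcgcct
Cxcr4 (chr1:128592300-128592549, minus strand): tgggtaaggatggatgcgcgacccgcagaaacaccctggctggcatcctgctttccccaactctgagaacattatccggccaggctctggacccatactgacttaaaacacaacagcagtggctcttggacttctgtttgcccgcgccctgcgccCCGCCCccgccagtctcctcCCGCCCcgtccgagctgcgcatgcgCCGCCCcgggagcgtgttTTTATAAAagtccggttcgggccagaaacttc
Ackr3 (chr1:90203730-90203979, plus strand): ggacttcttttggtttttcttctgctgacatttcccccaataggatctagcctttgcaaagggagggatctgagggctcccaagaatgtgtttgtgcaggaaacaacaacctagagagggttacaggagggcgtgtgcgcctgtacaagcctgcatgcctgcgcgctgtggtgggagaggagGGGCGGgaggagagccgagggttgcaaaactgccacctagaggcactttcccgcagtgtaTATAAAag
Apela (chr8:65037337-65037586, minus strand): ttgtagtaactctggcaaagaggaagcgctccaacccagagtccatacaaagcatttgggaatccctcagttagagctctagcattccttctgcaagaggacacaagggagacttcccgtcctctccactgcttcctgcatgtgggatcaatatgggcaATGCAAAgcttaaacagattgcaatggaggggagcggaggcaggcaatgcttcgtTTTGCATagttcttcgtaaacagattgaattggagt
The Cxcl12 stretch held 5 GC boxes, of which the pair nearest the start share 1 base, and no TATAAA, whereas Cxcr4 held 3 GC boxes with 2 overlapping TATAAA matches on opposite strands, the first 32 bases before the start. Ackr3 held 1 GC box and 1 TATAAA. GC boxes were in 32.7% of the 32851 mouse promoters of this length and TATAAA in 12.4%. ATGCAAAT was in none of the 6 stretches and in 1.6% of all promoters, and ATGCAAA was in Apela alone, at 2 positions, against 4.12% of all promoters. GC content was 64.4% for Cxcl12, 61.2% for Cxcr4, 54.0% for Ackr3 and 48.0% for Apela, and the median over all promoters was 52.4%. These matches describe the sequence only.

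Cxcl12 was the gene of the group that differed most between genotypes. Its level was 159 CPM in SO+ 1 and 86.3 CPM in SO+ 2, against 26.0, 20.5 and 26.4 CPM in SO− 1, 2 and 3. All SO− embryos lay below both SO+ embryos, the lowest SO+ level being 3.26 times the highest SO− level, while the SO+ embryos differed 1.84-fold from each other and the SO− embryos 1.29-fold. The means were 123 ± 51.4 CPM (SD, n = 2) and 24.3 ± 3.33 CPM (SD, n = 3). The fitted log2 fold change of SO− over SO+ was -2.29 with a standard error (SE) of 0.24, or 4.9-fold lower in SO−. Cxcl12 had rank 44 among 12067 genes ordered from the largest fitted fall. The counts behind these levels were 4399 and 2333 in SO+ and 107, 23 and 110 in SO−, where the 95% Poisson interval of the lowest, SO− 2, ran from 13.0 to 30.7 CPM and so stayed below both SO+ embryos. Such intervals cover counting error only. Without SO+ 1, the embryo with the highest level, the log2 fold change was -1.79, and it was -2.67 without SO+ 2.

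The remaining level of Cxcl12 was larger in proportion than that of the deleted gene. In SO− 1, 2 and 3 it was 21.2%, 16.7% and 21.6% of the SO+ mean, and all were above the share of Pou5f1 left in the same embryo. The ratio of Cxcl12 to Pou5f1 per exon length was 0.0477 and 0.0545 in SO+ and 0.256, 0.452 and 0.165 in SO−. Both genes were higher in SO+ 1 than in SO+ 2 and lowest in SO− 2. In whole embryos, fewer cells that express a gene and less RNA per cell cannot be told apart. The gene lies at chr6:117168535-117181367 on the plus strand, and its 8176 exon bases are the union over all transcripts, so its FPKM is understated where short transcripts prevail.

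The receptor Cxcr4 (chr1:128588199-128592293, minus strand) was low in every embryo. It stood at 2.39 and 2.63 CPM in SO+ and at 6.55, 2.67 and 5.05 CPM in SO−. The SO− embryos lay above the SO+ embryos, but SO− 2 only by a factor of 1.02 and on 3 counts, with a 95% Poisson interval from 0.55 to 7.8 CPM that held both SO+ levels. The means were 2.51 ± 0.17 CPM (SD, n = 2) and 4.76 ± 1.96 CPM (SD, n = 3), and the fitted log2 difference was 1.02 (SE 0.54).

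Ackr3 (chr1:90203980-90216751, plus strand), the receptor that clears Cxcl12, was measured on more counts. It stood at 6.9 and 7.51 CPM in SO+ and at 14.6, 10.7 and 13.7 CPM in SO−. The genotypes did not overlap, the lowest SO− level being 1.42 times the highest SO+ level. The means were 7.21 ± 0.427 CPM (SD, n = 2) and 13.0 ± 2.04 CPM (SD, n = 3). The fitted log2 difference was 0.88 (SE 0.33), and it ranged from 0.78 to 0.97 over the 14 alternative fits, against 0.72 to 1.21 for Cxcr4.

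**Figure D1:**
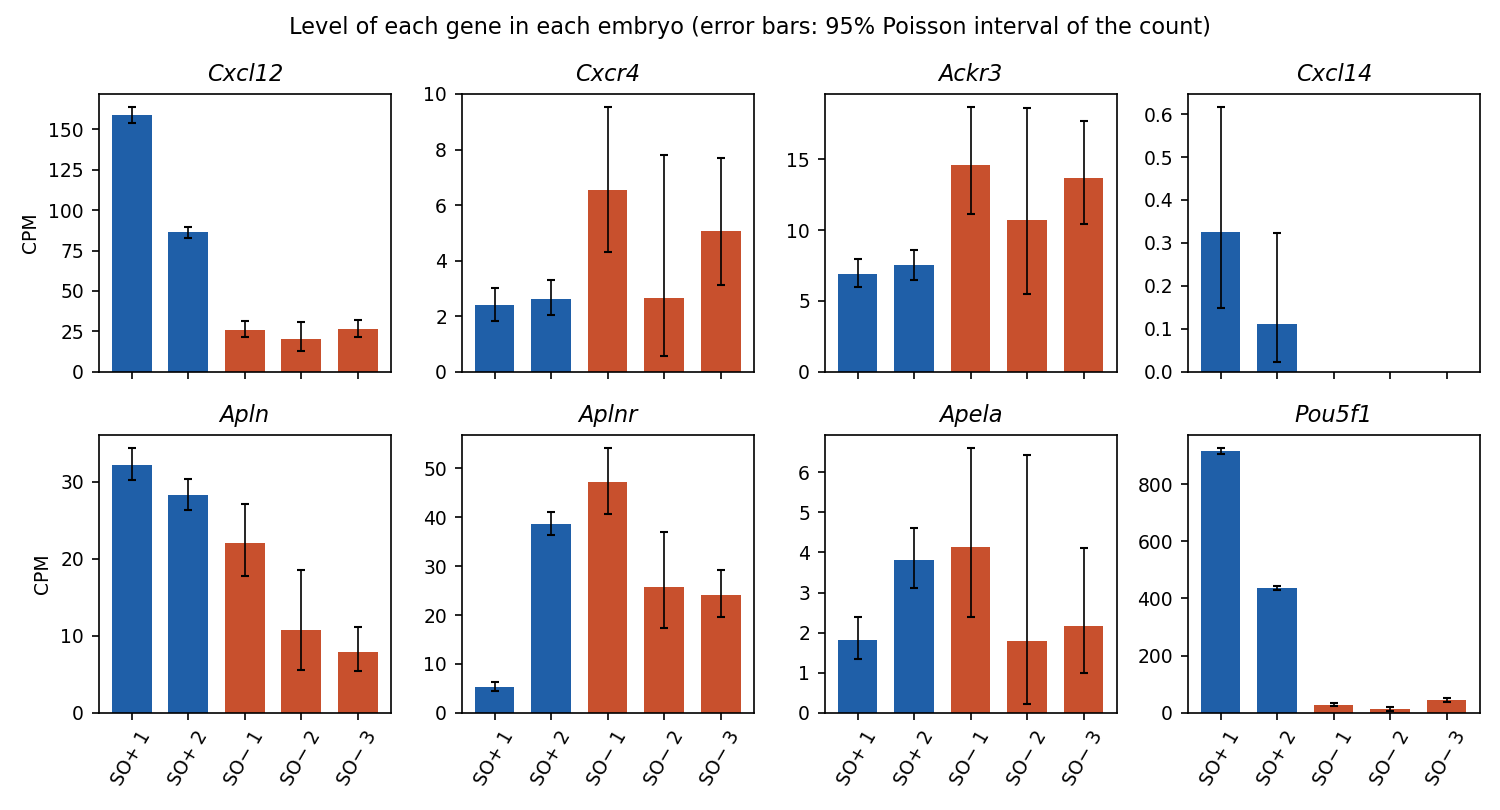
Level in CPM (vertical axis, from 0, a scale for each gene) of the 7 genes and of the deleted gene Pou5f1 in each embryo (horizontal axis; SO+ blue, SO− orange); bars are the level in 1 embryo and error bars the 95% Poisson interval of its count, with none drawn for a count of 0. Cxcl12 was 20.5 to 26.4 CPM in SO− against 86.3 and 159 CPM in SO+, whereas Ackr3 was 10.7 to 14.6 CPM against 6.9 and 7.51 CPM, and Aplnr was 5.28 and 38.6 CPM in the SO+ embryos.

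The balance of ligand to receptor within an embryo does not depend on library size. Cxcl12 per exon length was 14.7 and 7.27 times Cxcr4 in the SO+ embryos, and 0.876, 1.7 and 1.16 times Cxcr4 in the SO− embryos. The widest 95% exact binomial interval, in SO− 2, ran from 0.512 to 8.82 and so reached past the ratio of SO+ 2, while those of SO− 1 and SO− 3 ended at 1.39 and 1.95. Against Ackr3 the ratio was 9.43 and 4.71 in SO+ and 0.73, 0.785 and 0.79 in SO−, where the upper bound of SO− 2 was 1.73, below both SO+ ratios. These intervals cover counting error only, and the genes were chosen on the same fall of ligand against receptors. In mRNA per length, then, Cxcl12 exceeded both receptors in both SO+ embryos and was near them in the SO− embryos. That nearness depends on the exon lengths used, and Cxcl12 per length is understated where short transcripts prevail. In raw counts of SO− 1, 2 and 3, Cxcl12 was 3.96, 7.67 and 5.24 times Cxcr4 and 1.78, 1.92 and 1.93 times Ackr3. The mean log2 ratio was 3.11 lower in SO− for Cxcr4 (8.64-fold) and 3.12 lower for Ackr3 (8.68-fold), and leaving out any 1 embryo gave differences from -3.62 to -2.6 for Cxcr4. The receptors had like ratios to each other in both genotypes: Ackr3 per length was 1.56 and 1.54 times Cxcr4 in SO+ and 1.2, 2.16 and 1.47 times in SO−, with the genotypes overlapping.

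**Figure D2:**
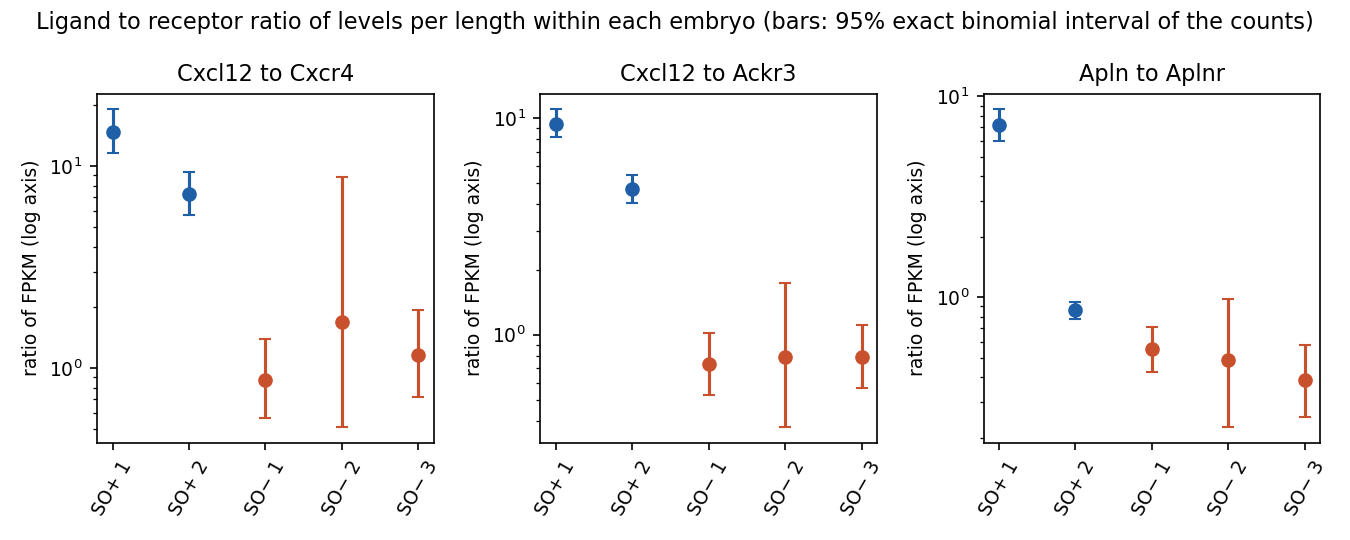
Ratio of ligand to receptor FPKM (vertical axes, log scale) in each embryo (horizontal axis; SO+ blue, SO− orange), for Cxcl12 to Cxcr4, Cxcl12 to Ackr3 and Apln to Aplnr; points are 1 embryo and bars the 95% exact binomial interval of the counts. Cxcl12 to Ackr3 was 9.43 and 4.71 in SO+ and 0.73 to 0.79 in SO−, and Apln to Aplnr was 7.18 in SO+ 1 but 0.86 in SO+ 2.

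Apln (chrX:48025146-48034853, minus strand), an Aplnr ligand, was the other tested gene of the group with all SO− embryos below the SO+ embryos. It stood at 32.2 and 28.3 CPM in SO+ and at 22.1, 10.7 and 7.93 CPM in SO−. The gap was narrow, the lowest SO+ level being 1.28 times that of SO− 1, while SO− 2 and SO− 3 lay further down. The means were 30.2 ± 2.82 CPM (SD, n = 2) and 13.6 ± 7.51 CPM (SD, n = 3), and the fitted log2 difference was -1.10 (SE 0.33), or 2.15-fold lower. Leaving out 1 embryo moved it from -1.79 (without SO− 1, the SO− embryo with the highest level) to -0.76 (without SO− 3, the lowest).

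Apela (chr8:65028417-65037336, minus strand), the second Aplnr ligand, was low in all embryos. It stood at 1.81 and 3.81 CPM in SO+ and at 4.13, 1.78 and 2.16 CPM in SO−, the last 3 on 17, 2 and 9 counts. The genotypes overlapped, with SO− 1 highest and SO− 2 lowest. The log2 fold change was 0.03 (SE 0.62), and its sign turned without SO+ 1 (-0.41), without SO− 1 (-0.47) and without the filter on low counts (-0.01). Apela shares 297 exon bases with Gm45886 on the same strand, which had 0 counts, and reads within the shared bases could be assigned to either gene or to neither.

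Aplnr (chr2:85136225-85139923, plus strand) differed more between the SO+ embryos than between genotypes. It stood at 5.28 CPM in SO+ 1 and 38.6 CPM in SO+ 2, and at 47.1, 25.8 and 24.0 CPM in SO−. SO+ 1 was lowest by far and SO+ 2 lay among the SO− embryos. The SO+ embryos differed 7.32-fold on 146 and 1044 counts, the SO− embryos 1.96-fold. The log2 fold change was 0.59 (SE 0.58), 2.64 without SO+ 2 and -0.22 without SO+ 1, so that its direction rested on SO+ 1. Apln to Aplnr per length was 7.18 in SO+ 1, 0.86 in SO+ 2 and 0.551, 0.486 and 0.388 in SO−, and Apela to Aplnr was 1.26, 0.363, 0.323, 0.254 and 0.332 in the same order. In both ratios SO+ 1 stood apart and SO+ 2 was nearer to the SO− embryos.

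Of 14 tested genes of nascent mesoderm and early endothelium, 10 were lower in SO+ 1 than in SO+ 2, 6 of them at least 2-fold, and 4 were higher. The share of all genes lower in SO+ 1 was not counted, so nothing is read from this count. The 4 were Etv2, Lmo2, Bmp4 and the primitive streak gene T, while Mesp1, Lefty2, Pdgfra and Kdr below are among the 6. T stood at 38.5 and 35.5 CPM in SO+ and at 83.0, 55.1 and 33.2 CPM in SO−. Mesp1, a transcription factor of early mesoderm, was 20.8 CPM in SO+ 1 and 63.3 CPM in SO+ 2, and 27.9, 27.6 and 27.2 CPM in SO−. Lefty2, a Nodal antagonist made in new mesoderm, was 25.5 and 92.2 CPM in SO+ and 76.0, 98.7 and 33.2 CPM in SO−. Pdgfra, a growth factor receptor of mesoderm, was 2.67 and 16.6 CPM in SO+ and 21.4, 15.1 and 2.40 CPM in SO−. Thus SO− 3 was as low as SO+ 1 in Pdgfra, while its Aplnr was not. Kdr, the VEGF receptor of blood and vessel progenitors, was 0.0361 and 4.59 CPM in SO+ and 18.0, 17.8 and 8.41 CPM in SO−, and so was above both SO+ embryos in all SO− embryos. Of the list genes named here, all but Lefty2 and Etv2 were named after their values were seen. The part of embryo stage in these levels was not tested.

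**Figure D3:**
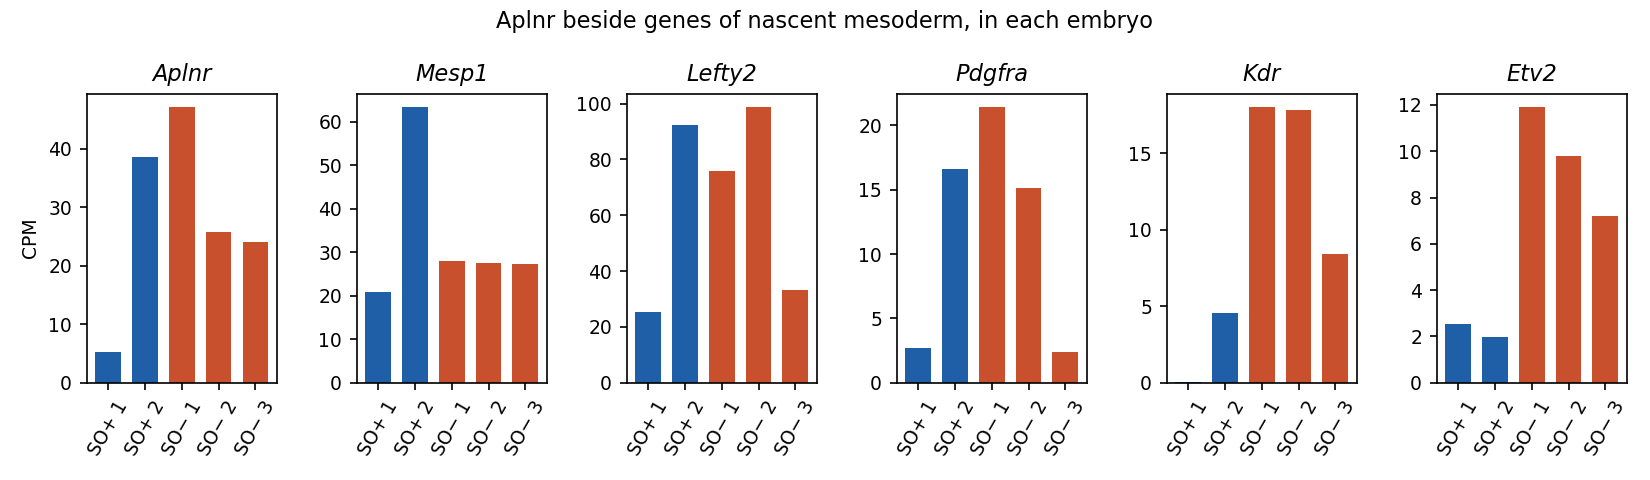
Level in CPM (vertical axes, from 0, a scale for each gene) of Aplnr and of 5 genes of nascent mesoderm in each embryo (horizontal axis; SO+ blue, SO− orange); each bar is 1 embryo. SO+ 1 was lowest for Aplnr (5.28 CPM) and Mesp1 (20.8 CPM), and Etv2 was 7.21 to 11.9 CPM in SO− against 1.96 and 2.53 CPM in SO+.

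Cxcl14 (chr13:56288643-56296551, minus strand), a chemokine with a less settled receptor, was near the limit of detection. It had 9 and 3 counts in SO+, or 0.325 and 0.111 CPM, and 0 in each SO− embryo. A count of 0 allows up to 3 counts, which is 0.728, 2.67 and 0.721 CPM in SO− 1, 2 and 3, more than either SO+ level. A difference in Cxcl14 was therefore not detectable at this depth, and no fold change is given.

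Read against all genes, the group was mixed. By edgeR's quasi-likelihood test with Benjamini-Hochberg adjustment at 0.05, 2.35% of the 12067 genes were called, 0.928% lower and 1.42% higher in SO−. Of the 6 genes tested Cxcl12 was the 1 called by edgeR, limma-voom did not call it, and nothing is read from this because the comparison itself chose the genes. All SO− embryos lay below both SO+ embryos for 15.1% of all genes and for Cxcl12 and Apln of these 6, and above them for 14.3% of all genes and for Cxcr4 and Ackr3. The median log2 fold change was 0.311 over the 6 and -0.002 over all genes.

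Around these genes, 196 further gene entries of the pathway in 8 lists were followed, and 120 of them were tested. In SO−, 8 rose and 1 fell, or 7.5% of those tested, against 2.35% of all genes. The median log2 fold change of those tested was 0.10. The lists were chosen with earlier results of these data known, so the higher share is no independent evidence about the pathway. Most of the calls did not concern chemokine signalling itself. From the definitive endoderm list came 4, among them Fgf8, which is also a gene of the primitive streak. Mesoderm or early endothelial genes made up 2, and the others were Gnai1, Rgs10 and Gpc3. Leaving out SO− 1 or SO− 2 left 1 call of these 9, that of Fgf8.

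No other chemokine ligand or receptor passed the test. The other chemokine ligands had 40 entries in the count table, with Ccl19, Ccl21a and Ccl27a entered more than once. Of these entries, 10 had any count and 4 were tested, with 0 called by edgeR, DESeq2 or limma-voom. Of the 4, 1 had an unadjusted edgeR p under 0.05, a share that was not counted over all genes. That 1 was Ccl20, ligand of Ccr6, at 0.0723 and 0.555 CPM in SO+ and 3.4, 2.67 and 1.44 CPM in SO− (log2 fold change 2.94, SE 0.98, edgeR adjusted p = 0.174). The highest, the membrane-bound Cx3cl1, was 20.2 and 28.7 CPM in SO+ and 36.2, 42.7 and 24.7 CPM in SO− (log2 fold change 0.45, SE 0.25, edgeR adjusted p = 0.478). Its genotypes overlapped. Ccl25 was 5.34 to 7.21 CPM over the 5 embryos, and Ccl27a, which has near-identical copies that could split its reads, was 0 to 3.11 CPM. Of 23 other chemokine receptors 12 had any count and 0 passed the filter, their summed level being 1.94 to 3.84 CPM.

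Of 3 ligands of these receptors that are no chemokines, 2 were tested and both were abundant in both genotypes. The third, the peptide hormone Adm, was 4.66 and 0.222 CPM in SO+ and 0, 0.889 and 1.68 CPM in SO−, and did not pass the filter. Mif, a cytokine that also binds Cxcr4, was 1025 and 846 CPM in SO+ and 814, 716 and 876 CPM in SO−, with a log2 fold change of -0.22 (SE 0.11, edgeR adjusted p = 0.429). Hmgb1, a chromatin protein that binds Cxcl12 when released, was 460 and 526 CPM in SO+ and 458, 321 and 457 CPM in SO−, with a log2 fold change of -0.25 (SE 0.14, edgeR adjusted p = 0.485). Neither Mif nor Hmgb1 passed the test by edgeR, DESeq2 or limma-voom, nor did either reach an unadjusted p under 0.05.

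Downstream of the receptors, 2 of 31 tested genes of G proteins, receptor kinases, arrestins and RGS proteins were called by edgeR, in opposite directions, against 2.35% of all genes. Neither was called by limma-voom (adjusted p = 0.0862 for Gnai1 and 0.177 for Rgs10), the Rgs10 call was lost without any 1 of the 5 embryos, and the Gnai1 call was lost without any 1 embryo other than SO+ 2. Gnai1, an inhibitory G protein alpha subunit, was 12.8 and 17.0 CPM in SO+ and 34.0, 32.0 and 28.6 CPM in SO−. It rose with no overlap (log2 fold change 1.08, SE 0.23, edgeR adjusted p = 0.0273). Rgs10, which speeds the shut-off of inhibitory G proteins, was 6.29 and 6.88 CPM in SO+ and 1.21, 0.889 and 1.20 CPM in SO−. It fell (log2 fold change -2.50, SE 0.53, edgeR adjusted p = 0.0273) to 5, 1 and 5 counts, so the SO− level of Rgs10 was measured coarsely. The 3 most abundant genes of this list had small differences: Gnai2 was 447 to 573 CPM over the 5 embryos with a log2 fold change of 0.06 (SE 0.11), Gnb1 was 439 to 511 CPM with -0.01 (SE 0.10), and the ubiquitin ligase Nedd4 was 705 to 763 CPM with -0.01 (SE 0.09).

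Among 34 tested genes of cell motility and survival 0 were called by edgeR, DESeq2 or limma-voom, and 6 had an unadjusted edgeR p under 0.05. The share of all genes under that unadjusted p was not counted, so nothing is read from the 6. Of the 3 most abundant, the actin-severing Cfl1 had a log2 fold change of -0.13 (SE 0.10), the GTPase Cdc42 -0.06 (SE 0.10) and the GTPase Rhoa 0.01 (SE 0.10). The summed level of the list was 4152 and 4376 CPM in SO+ and 4029 to 4225 CPM in SO−.

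Of 25 tested genes that process or hold the ligand outside the cell, 1 was called by edgeR, against 2.35% of all genes, and 0 by limma-voom. Gpc3, a heparan sulphate proteoglycan of the cell surface, was 539.8 and 625 CPM in SO+ and 921, 896 and 727 CPM in SO−, and rose (log2 fold change 0.54, SE 0.12, edgeR adjusted p = 0.0313). The call of Gpc3 was lost under limma-voom (adjusted p = 0.1) and without SO+ 1, SO− 1 or SO− 2. Dpp4, the protease that inactivates Cxcl12, was 91.0 and 112 CPM in SO+ and 151, 159 and 91.1 CPM in SO− (log2 fold change 0.38, SE 0.20, edgeR adjusted p = 0.449). Its genotypes overlapped through SO− 3. Gpc4, a related proteoglycan, had a log2 fold change of 0.31 (SE 0.13, edgeR adjusted p = 0.311).

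Of 14 tested genes of nascent mesoderm and early endothelium, 2 were called by edgeR, against 2.35% of all genes. Etv2, a factor of blood and vessel progenitors, was 2.53 and 1.96 CPM in SO+ and 11.9, 9.78 and 7.21 CPM in SO−, and rose (log2 fold change 2.09, SE 0.47, edgeR adjusted p = 0.0348). Hand1, a factor of extra-embryonic mesoderm and also of trophoblast, was 1.08 and 2.74 CPM in SO+ and 13.6, 24.0 and 12.0 CPM in SO−, and rose (log2 fold change 3.04, SE 0.52, edgeR adjusted p = 0.00754). The Etv2 call was lost under limma-voom (adjusted p = 0.0611) and without SO+ 1, SO+ 2, SO− 1 or SO− 2. The Hand1 call was lost without SO− 1 or SO− 2, and its log2 fold change was 3.83 without SO+ 2. The more abundant Mixl1, a factor of the primitive streak, was 158 and 281 CPM in SO+ and 186, 169.8 and 130.2 CPM in SO− (edgeR adjusted p = 0.375), and Gata4 and Lefty2 had adjusted p of 0.499 and 0.938 in the same fit.

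All 10 tested definitive endoderm genes had a positive log2 fold change, with a median of 0.85, against -0.002 over all genes. Of the 10, 4 were called by edgeR, against 2.35% of all genes. This list was chosen with earlier results of these embryos known and is no independent evidence of its direction. Fgf8, a secreted growth factor of the primitive streak, was 137 and 123 CPM in SO+ and 307, 331 and 297 CPM in SO− (log2 fold change 1.26, SE 0.11, edgeR adjusted p = 1.25e-04), and was called in all 14 alternative fits. Trh, a neuropeptide precursor, was 215 and 88.1 CPM in SO+ and 651, 598 and 489 CPM in SO− (log2 fold change 1.93, SE 0.28, edgeR adjusted p = 0.00251). Sox17, a factor that specifies endoderm, was 22.4 and 31.3 CPM in SO+ and 74.8, 98.7 and 38.2 CPM in SO− (log2 fold change 1.33, SE 0.30, edgeR adjusted p = 0.0365). For each the genotypes did not overlap. Cer1, a secreted antagonist of Nodal, also rose (log2 fold change 0.69, SE 0.13, edgeR adjusted p = 0.0126). Limma-voom called 3 of these 4 and not Sox17 (adjusted p = 0.186). Without SO− 1 or SO− 2, Fgf8 alone was called, Cer1 also missed the threshold without SO+ 1, and the log2 fold change of Trh was 2.71 without SO+ 1 and 1.42 without SO+ 2. The VE, which these libraries hold, also expresses Sox17, Cer1, Foxa2, Hhex and Gata6 of this list. Of 14 VE markers 12 had a positive log2 fold change, with a median of 0.36, against -0.002 over all genes. Of the 14, 1, Spink1, was called by edgeR, against 2.35% of all genes. The summed VE markers were 6649, 6676 and 4489 CPM in SO− 1, 2 and 3, the first 2 nearly equal. Sox17, Hhex and Gata6 had the same order over these embryos, whereas Cer1 and Foxa2 did not. In SO− 3 the VE sum was below both SO+ embryos, while Sox17 was above both. The part of the VE in the levels of this list was not tested.

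**Figure D4:**
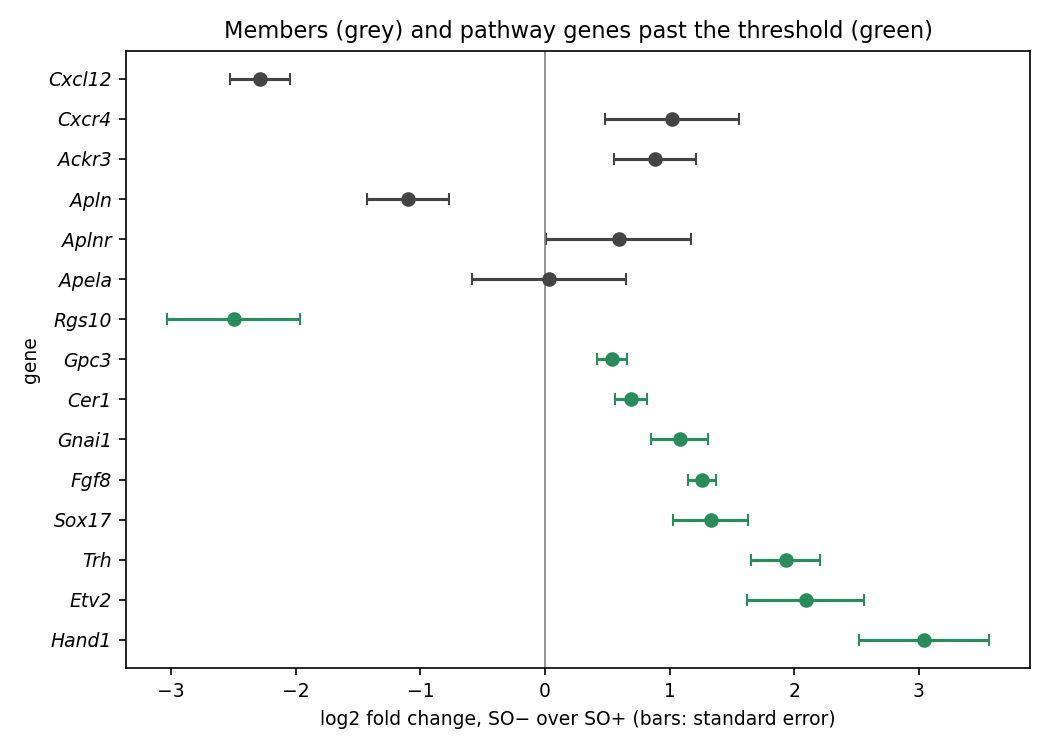
Fitted log2 fold change, SO− over SO+ (horizontal axis), of the 6 genes of the group that were tested (grey, described without a test) and of the 9 pathway genes past the threshold (green); points are the fit over 2 SO+ and 3 SO− embryos and bars the standard error. Cxcl12 lay at -2.29 and Apln at -1.10, while Cxcr4 and Ackr3 lay at 1.02 and 0.88.

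Cell type markers differed between embryos beside these levels. The summed level of 11 epiblast markers was 7060.3 and 5791 CPM in SO+ and 3332, 2930.1 and 4125 CPM in SO−. Dnmt3b was the largest part, at 3964 and 3264 CPM in SO+ and 1714, 1438 and 2302 CPM in SO−. Of the 11, 4 were called lower by edgeR, against 0.928% of all genes: the deleted Pou5f1, Utf1, Dnmt3b and L1td1. Another 4 had a positive log2 fold change and were not called: Fgf5 (0.38), Sox2 (0.56), Nanog (0.02) and Epcam (0.04). Epcam was 401 to 482 CPM in all embryos. The sum of these 14 VE markers was 4719 and 4749 CPM in SO+ and 6649, 6676 and 4489 CPM in SO−. In SO− 3, where the VE sum was below both SO+ embryos, Cxcl12 was 26.4 CPM, as low as in SO− 1. The 11 markers of extra-embryonic ectoderm summed to 22.0 and 30.0 CPM in SO+ and 50.5, 60.5 and 50.5 CPM in SO−. Hand1 was highest among them in SO− 2, and Fgfr2 in SO− 1 and SO− 3. The defining Elf5 was 0.108 and 0.185 CPM in SO+ and 0.485, 0 and 2.64 CPM in SO−, the last 3 on 2, 0 and 11 counts. The 12 markers of decidua and uterine stroma, a tissue that makes Cxcl12, summed to 17.3 and 18.0 CPM in SO+ and 27.4, 16.0 and 25.0 CPM in SO−, and the defining Prl8a2 had 0 counts in every embryo. Of 14 endothelial and blood markers 9 had 0 counts in every embryo, Cdh5 and Ptprc among them, and the sum was 1.46 to 4.81 CPM. The part of cell composition in the fall of Cxcl12 was not tested.

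The genes with a profile most like Cxcl12 were found from the root mean square (RMS) difference of log2 CPM over the 5 embryos, each gene centred on its mean, among the 9301 genes whose average log2 CPM reached 3. They were Camkv, a kinase-like protein without kinase activity (RMS 0.193), Wfdc2, a secreted protease inhibitor (0.208), L1td1, an RNA-binding protein of pluripotent cells (0.267), Snph, which anchors mitochondria (0.269), and Abcg1, a cholesterol exporter (0.274). Camkv was 34.9 and 27.1 CPM in SO+ and 7.04, 6.22 and 7.93 CPM in SO−. L1td1 was 154 and 126 CPM in SO+ and 41.3, 30.2 and 42.3 CPM in SO−. Ranked instead by Pearson correlation, 0 of these 5 were among the 5 nearest. Pou5f1 had a correlation of 0.99 with Cxcl12 but an RMS difference of 1.26 and rank 6847, since it fell further. The 5 embryos form groups by genotype, and 154 genes (1.66%) had a correlation above 0.95 with Cxcl12, so the likeness says only that levels moved alike.

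**Figure D5:**
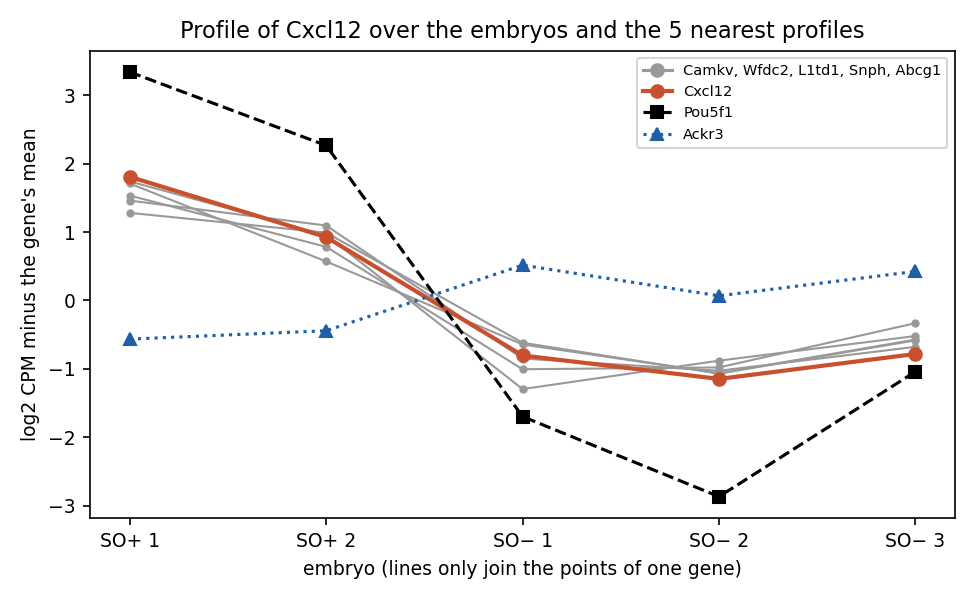
Log2 CPM minus the gene's own mean (vertical axis) in each embryo (horizontal axis) for Cxcl12 (orange), the 5 genes with the nearest profile (grey), Pou5f1 (black, dashed) and Ackr3 (blue, dotted); lines only join the points of 1 gene. The grey profiles lie within an RMS difference of 0.274 of Cxcl12, Pou5f1 falls further in SO−, and Ackr3 is higher in SO−.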

How the data were processed

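The authors made SmartSeq2 libraries from polyadenylated RNA of single embryos, sequenced them in pairs, trimmed the reads, aligned them to mouse GRCm38 (mm10) with STAR and counted them per gene with HTSeq on an Ensembl annotation. The deposited table holds raw counts per gene for the 5 embryos. Strand use and the handling of duplicates were not given in the sources used here. Genes with low counts were filtered (12067 of 49671 kept), libraries were scaled by TMM, and genotypes were compared with edgeR 4.0.16 (quasi-likelihood test, no replicate block, Benjamini-Hochberg over all genes tested, threshold 0.05), after the same fit was tested on simulated data. CPM and FPKM were computed from the counts. FPKM used exon lengths of GENCODE M21, found for 99.3% of genes, and positions are from GENCODE in GRCm38. Alternatives were DESeq2 1.42.0, limma-voom (limma 3.58.1), other filters and scalings, a replicate block, and leaving out each embryo. The genes of the group, the lists and the motifs were chosen with earlier results of these data known. Named genes were the 7 of the group, list genes past the threshold, the 3 highest tested of each pathway list, defining or highest markers, and the 5 profiles nearest to Cxcl12. Adm, T, Spink1, Ccl20, Mesp1, Pdgfra, Kdr, Lmo2, Bmp4, Epcam, Utf1, Fgf5, Sox2 and Nanog were named after their values were seen.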

Additional observations from a re-analysis of the deposited data

How the results depend on the processing

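Against 283 genes called, limma-voom called 91, and leaving out each embryo in turn gave 35 (without SO− 2) to 573 (without SO+ 2), with 46 without SO− 1. Of the pathway genes, 9 in the reported fit, limma-voom called 4 and leaving out each embryo 1 to 17. Embryos that share a replicate number are different animals and their deviations correlated at 0.008 and 0.115. The deviations of the 2 SO+ embryos mirror each other, so these values cannot tell whether the numbers pair a litter or batch. With a replicate block the calls were 929 genes and 29 pathway genes, or 745 and 25 without the unpaired SO− 3. Leaving out each embryo gave a log2 fold change of -2.67 to -1.79 for Cxcl12, -1.79 to -0.76 for Apln, -0.22 to 2.64 for Aplnr and -0.47 to 0.65 for Apela. Apela was also reversed with no filter on low counts (-0.01). The cause of these changes was not tested, and the fits that left out an embryo also had fewer embryos. Cxcl12, Cxcr4, Ackr3 and Apln kept their direction in all 14 alternative fits, but limma-voom did not call Cxcl12. The SO− 2 library, the shallowest, limits Cxcr4, Apela and Cxcl14 most: 3 counts there equal 2.67 CPM.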
